A study of Homo sapiens with 18 samples.

Results

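The comparison described here is a difference between 2 responses to doxycycline: the response of a HEK293T line that carries a poly-adenylate reporter, minus the response of a line that carries a ChFP reporter. Its members are the 12 libraries of these lines out of 18 in the series, chosen by line and induction as the labels give them, and it was tested over 15447 of the 28394 genes in the count table. HEK293T is an established human embryonic kidney line that expresses the SV40 large T antigen, a viral protein that binds p53. Both lines are stable and carry a Tet-controlled cassette of GFP, the P2A peptide and a last part, which is ChFP in the control line and poly-adenylate in the other. Each line was sampled uninduced and after 48 h of induction with doxycycline at 500 ng/μl, as the labels give the dose, with 3 libraries in each of the 4 groups. Uninduced libraries of both lines carry the cassette without the drug, and induced libraries of both lines had the drug. Whether each line is 1 clone, and whether replicates are separate cultures, was not stated in the labels. The p-values therefore cover the spread among these libraries alone, and that spread may be technical. The remaining line, carrying 102xPR, entered the fit, where it shares in the filter on low counts and in the estimate of the spread, and its own difference from the ChFP response is given at the end as values.

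Ribosomes that translate poly-adenylate make lysine after lysine, and they slow and stall on such stretches, which is how quality control of stalled ribosomes is commonly provoked. A collision of ribosomes is sensed by the ubiquitin ligase ZNF598 and by GCN1, after which the ribosome is split and the unfinished chain is cleared from the large subunit. Collisions can also feed kinases, among them GCN2 (gene EIF2AK4), which phosphorylates eIF2α and so raises translation of ATF4, the transcription factor of the integrated stress response. The study set poly-adenylate stalling beside poly-PR stalling with the ChFP line as control, and the difference described here asks which RNAs responded otherwise in the poly-adenylate line than in the control line.

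The 12 libraries held 15020700 to 25287400 counts. They divided into 2 library sets by the sign of the second principal component of all 18 libraries, which held 7.61% of the variance and which no label names. The first set holds the 3 uninduced ChFP libraries, induced ChFP replicate 3 and uninduced poly-adenylate replicates 2 and 3, with 6.30% to 7.15% of counts on mitochondrially encoded genes. The second holds induced ChFP replicates 1 and 2, uninduced poly-adenylate replicate 1 and all 3 induced poly-adenylate libraries, with 4.56% to 5.16%. Of the 102xPR libraries, induced replicates 1 and 2 also had the sign of the first set, though with 4.56% and 4.46% on mitochondrially encoded genes. The fit with the library set as a covariate used these labels for all 18 libraries. The first set has no induced poly-adenylate library and the second no uninduced ChFP library, so the difference cannot be computed within either. It is given below also with the library set as a covariate, and over balanced sets, that is without induced ChFP replicate 3 and uninduced poly-adenylate replicate 1, which leaves each line with its uninduced libraries in 1 set and its induced libraries in the other. The 9 markers reported for HEK293 cells summed to 857 to 959 CPM (counts scaled to a common library size by TMM) over the 12 libraries. Those of hepatocytes summed to at most 1.01 CPM, of blood cells to at most 6.03, of epithelium to at most 10.2 and of fibroblasts to at most 34.1.

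Of the 15447 genes, 4 responded differently in the lines (0.0259%, adjusted p under 0.05 in edgeR's quasi-likelihood test), and in all 4 the response was lower in the poly-adenylate line. They are SESN2, VLDLR, DDR2 and NEAT1. No gene passed in the other direction, where the smallest adjusted p was 0.0814, while at an unadjusted p under 0.05 there were 869 genes with a higher and 822 with a lower response (10.9% in all). SESN2 encodes sestrin 2, a stress-induced inhibitor of mTORC1 signalling, and VLDLR a receptor for lipoproteins and reelin. DDR2 encodes a receptor tyrosine kinase that is activated by fibrillar collagen, and NEAT1 is the long noncoding RNA around which nuclear paraspeckles are built.

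RefSeq windows at the start sites of SESN2, VLDLR and DDR2 (build GRCh38.p14) are shown, and NEAT1 was not searched. They are given because SESN2 and VLDLR stand on the list of ATF4 targets described below, and the window of another listed target, CHAC1, is shown beside them. Capitals mark TGATGNAA, the core of the composite element that ATF4 binds with C/EBP partners, searched on both strands (TTNCATCA on the other), and each sequence is written 5′ to 3′ on the plus strand, which is the strand of all 4 genes. The window of SESN2 is chr1:28259268-28259567, that of VLDLR chr9:2621537-2621836, the third of 3 windows of DDR2 chr1:162632214-162632513, and that of CHAC1 chr15:40953221-40953520.
SESN2: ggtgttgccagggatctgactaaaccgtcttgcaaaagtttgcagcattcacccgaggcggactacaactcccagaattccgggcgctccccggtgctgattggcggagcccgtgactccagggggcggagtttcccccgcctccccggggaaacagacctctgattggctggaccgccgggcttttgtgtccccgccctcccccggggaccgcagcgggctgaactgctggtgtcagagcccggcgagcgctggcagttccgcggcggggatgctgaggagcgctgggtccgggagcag
VLDLR: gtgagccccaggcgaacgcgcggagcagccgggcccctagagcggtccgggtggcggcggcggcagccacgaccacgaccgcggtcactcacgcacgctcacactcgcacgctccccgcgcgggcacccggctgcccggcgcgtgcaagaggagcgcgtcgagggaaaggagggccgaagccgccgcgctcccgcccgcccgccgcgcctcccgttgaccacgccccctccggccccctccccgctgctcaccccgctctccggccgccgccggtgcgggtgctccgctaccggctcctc
DDR2: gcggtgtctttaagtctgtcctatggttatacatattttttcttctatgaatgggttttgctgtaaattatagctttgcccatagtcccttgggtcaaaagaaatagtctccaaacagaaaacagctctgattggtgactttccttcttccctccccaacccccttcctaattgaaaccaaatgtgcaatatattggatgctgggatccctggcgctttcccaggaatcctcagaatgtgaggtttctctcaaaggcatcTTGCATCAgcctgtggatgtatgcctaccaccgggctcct
CHAC1: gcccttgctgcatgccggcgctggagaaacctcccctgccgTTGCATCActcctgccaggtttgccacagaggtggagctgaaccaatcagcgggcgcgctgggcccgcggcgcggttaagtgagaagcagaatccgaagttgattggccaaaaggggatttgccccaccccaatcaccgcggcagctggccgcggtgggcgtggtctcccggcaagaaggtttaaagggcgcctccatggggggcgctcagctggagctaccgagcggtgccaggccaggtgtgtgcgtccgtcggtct
The letters are present once in the CHAC1 window, starting at base -209 from the start site, and once in the third DDR2 window, starting at base 11 after it. They are not in the windows of SESN2 and VLDLR or in the other 2 of DDR2. Of all 35116 windows of 300 bases in the table, 3.62% hold the letters, and 4.46% of genes hold them in at least 1 window, against 9 of the 30 ATF4 targets that have a window (30.0%). These are matches of letters, with no measurement of binding.

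SESN2 (Entrez 83667, chromosome 1, 28259518 to 28282491) stood at 61.3, 64.4 and 57.8 CPM in the uninduced and 84.7, 87.3 and 87 in the induced ChFP libraries. In the poly-adenylate line it stood at 119.8, 89 and 87.9 CPM before and 80.5, 73.7 and 73.5 after induction. All induced ChFP libraries were above all uninduced ones, and all induced poly-adenylate libraries were below all uninduced ones. SESN2 rose by 0.50 ± 0.09 log2 in the ChFP line (± SE of the fit here and below, adjusted p = 0.0094) and fell by 0.38 ± 0.09 in the poly-adenylate line (0.0422). The difference was -0.88 ± 0.12 (95% interval -1.14 to -0.62, adjusted p = 0.00859). The uninduced lines themselves differed, by 0.69 ± 0.09 (0.00131), and the induced ones had -0.19 ± 0.09 (0.306). These line comparisons share all their libraries with the difference of responses and are set beside it as values only. Of its relatives, SESN1 had a difference of -0.39 ± 0.14 (adjusted p = 0.299) and SESN3 of -0.03 ± 0.10 (0.947).

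VLDLR (Entrez 7436, chromosome 9, 2621787 to 2660056) has the adjusted p closest to the threshold. Its CPM were 8.78, 11 and 9.85 in uninduced and 11, 12.9 and 13.8 in induced ChFP libraries. They were 14.6, 13.9 and 11.9 in uninduced and 10.4, 9.62 and 8.19 in induced poly-adenylate libraries. The induced poly-adenylate libraries were all below the uninduced ones, while the ChFP groups met at 11. VLDLR fell by 0.52 ± 0.11 in the poly-adenylate line (adjusted p = 0.0309), its estimate in the ChFP line was 0.35 ± 0.11 (0.0947), and the difference was -0.86 ± 0.16 (95% interval -1.19 to -0.54, 0.0492). It passed in 12 of the 25 alternatives in which it had an adjusted p, with 0.231 over balanced sets. The gene overlaps VLDLR-AS1 and LOC105375957, and with no statement on strand its reads cannot be told apart from theirs. The related receptor gene LRP8 had a difference of -0.09 ± 0.10 (adjusted p = 0.804).

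DDR2 (Entrez 4921, chromosome 1, 162630863 to 162787405) was at 39.3, 42 and 42.6 CPM in uninduced and 42.9, 43.4 and 49.6 in induced ChFP libraries. In the poly-adenylate line its CPM were 52.8, 55.7 and 48.1 before and 38.1, 38 and 36.7 after induction. The poly-adenylate libraries lay on either side of the uninduced ChFP libraries, above all of them before and below all of them after induction. DDR2 fell by 0.47 ± 0.06 in the poly-adenylate line (adjusted p = 0.000766), its estimate in the ChFP line was 0.13 ± 0.06 (0.237), and the difference was -0.60 ± 0.09 (95% interval -0.78 to -0.42, 0.00765). It passed in each of the 25 alternatives that gave it an adjusted p. A pseudogene, RN7SL861P, lies within the gene.

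NEAT1 (Entrez 283131, chromosome 11, 65422798 to 65445540) was at 99.3, 105 and 109.6 CPM in uninduced and 128, 129 and 133 in induced ChFP libraries. It was at 165, 133 and 140.2 CPM in uninduced and 117, 122 and 123 in induced poly-adenylate libraries. As with SESN2, no induced library overlapped the uninduced ones of its line, and the shift was upward in the ChFP and downward in the poly-adenylate line. NEAT1 rose by 0.31 ± 0.07 in the ChFP line (adjusted p = 0.0192), fell by 0.28 ± 0.07 in the poly-adenylate line (0.0422) and had a difference of -0.59 ± 0.09 (95% interval -0.78 to -0.39, 0.0108). MALAT1, a nuclear RNA encoded next to it, had a difference of 0.17 ± 0.14 (adjusted p = 0.702). The genes of the paraspeckle proteins SFPQ (0.16 ± 0.07, 0.331), NONO (0.12 ± 0.08, 0.586) and PSPC1 (0.11 ± 0.08, 0.686) did not pass either. RNA was taken from a cleared detergent lysate, so nuclear RNA may be under-represented in all libraries, and the locus also holds the gene of the microRNA MIR612.

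**Figure D1:**
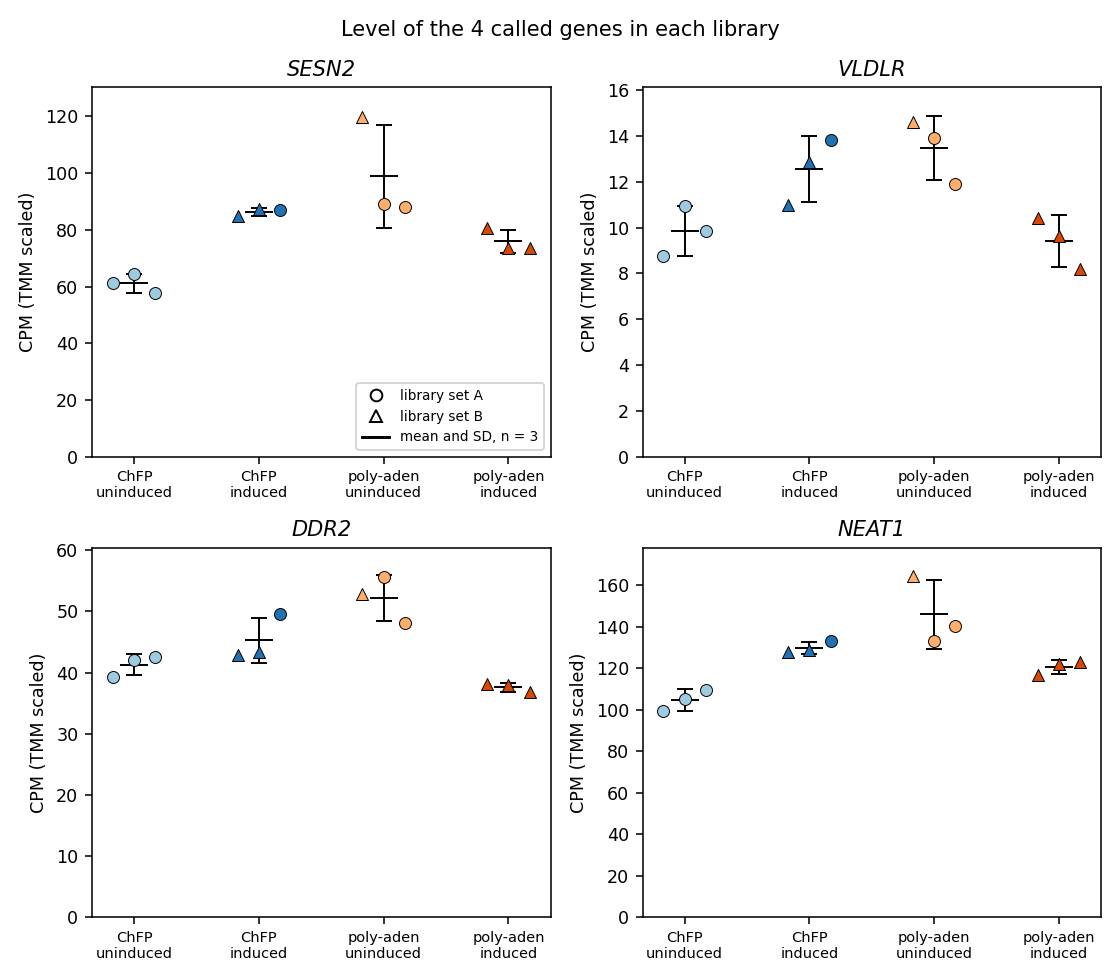
CPM (TMM scaled, linear axis from 0) of SESN2, VLDLR, DDR2 and NEAT1 in each of the 12 libraries, by group, with the mean and SD of 3 libraries; circles and triangles are the first (A) and second (B) library set. SESN2 was at 57.8 to 64.4 CPM in uninduced and 84.7 to 87.3 in induced ChFP libraries, against 87.9 to 119.8 and 73.5 to 80.5 in the poly-adenylate line.

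With the library set as a covariate the 4 genes passed, with differences of -0.87 for SESN2, -0.86 for VLDLR, -0.60 for DDR2 and -0.59 for NEAT1. The total of genes called then was 214 (1.39%), of which 166 were higher and 48 lower. With the mitochondrial share as a covariate it was 235 (1.52%), 166 higher and 69 lower. Both covariates were taken from these same counts, so calls made with them are not independent support. The p-values of these fits may be too small. Over balanced sets 3 genes were called (0.0191%): SESN2 at -0.71 (adjusted p = 3.74e-05), DDR2 at -0.52 (0.0127) and NEAT1 at -0.47 (0.0127), while VLDLR at -0.72 did not pass. Without induced ChFP replicate 3 alone only DDR2 passed (0.00637%), and SESN2 and NEAT1 had an adjusted p of 0.0523. Without uninduced ChFP replicate 1 NEAT1 had 0.0834. DESeq2's Wald test called 107 genes higher and 7 lower among the 4935 that its independent filter left (2.31%), a filter that gave DDR2 and VLDLR no adjusted p. Without that filter it called 21 higher and 10 lower of 22936 (0.135%), with all 4 genes among them. The count of genes called and the share of higher ones thus moved with the test and the covariate, while the direction of the 4 genes was the same in every alternative run. The part of the library sets in these differences was not tested.

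A further 6 genes had an adjusted p between 0.05 and 0.1. NECTIN4, a cell adhesion gene, was at 0.282, 0.205 and 0.0586 CPM before and 2.29, 2.22 and 2.17 after induction in the ChFP line. It was at 0.817, 0.335 and 0.316 CPM before and 1.03, 0.426 and 0.394 after it in the poly-adenylate line. Only the induced ChFP libraries stood apart from the rest. NECTIN4 rose in the ChFP line by 3.47 ± 0.39 (adjusted p = 3.84e-05), and its difference was -3.19 ± 0.60 (0.0644). SPATA18, a p53 target that acts in mitochondrial quality control, had a difference of -1.46 ± 0.28 (0.0864) and the antisense RNA MORF4L2-AS1 one of -0.94 ± 0.19 (0.0864). Above 0 were URB2, a ribosome assembly factor (0.47 ± 0.09, 0.0814), the homeobox gene EN2 (0.37 ± 0.07, 0.0864) and CDR2L (0.40 ± 0.08, 0.0864). URB2 and EN2 rose in the poly-adenylate line (adjusted p = 0.0309 and 0.0238), and CDR2L fell in the ChFP line (0.0489).

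Over all genes, 167 differed between uninduced and induced libraries of the poly-adenylate line (1.08%), 126 upward (0.816%) and 41 downward. In the ChFP line 311 did (2.01%), 174 upward and 137 downward. Induced poly-adenylate libraries were all of the second library set and uninduced ChFP libraries all of the first. The responses within a line, here and in all passages, were fitted without the library set, so its part in these rises and falls was not tested. The 2 responses share no libraries. Of the genes called, 7 were called in both lines, which is 4.19% of the poly-adenylate and 2.25% of the ChFP list, and 5 of the 7 moved the same way. The test of the difference itself passed for 4 of the 167 and 2 of the 311. The median SE of the difference was 0.12 log2, the median half-width of its 95% interval 0.249, and for 82.8% of genes that interval lay within 1 log2 of 0 on either side.

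**Figure D2:**
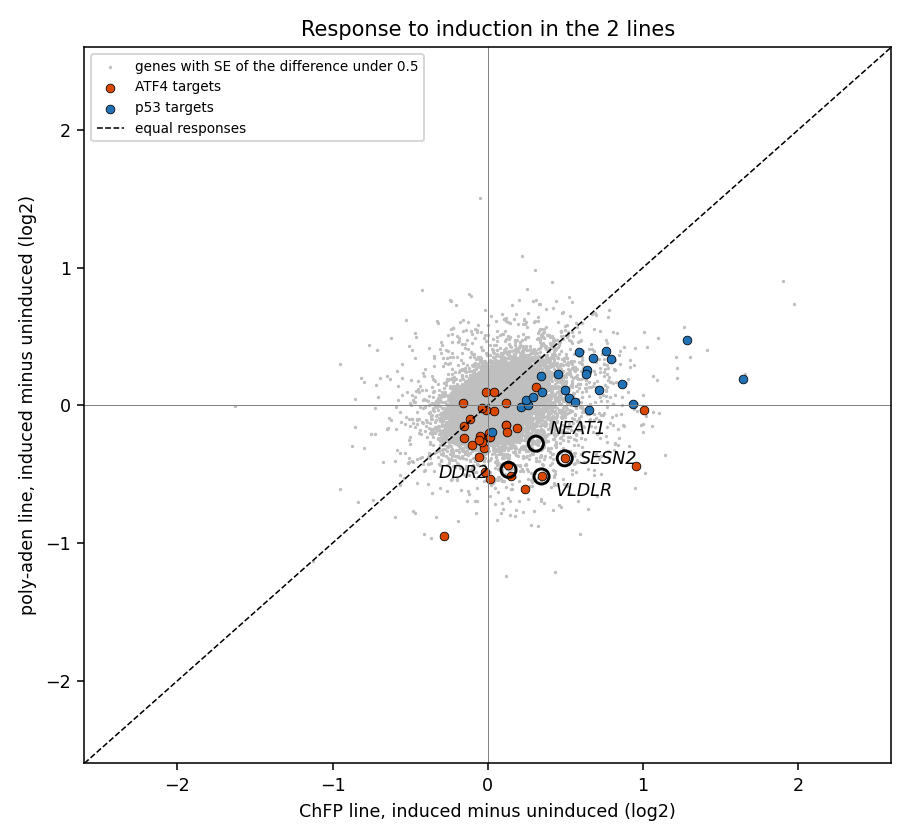
Response of each gene in the poly-adenylate line against its response in the ChFP line (log2, induced minus uninduced), for 14042 genes with an SE of the difference under 0.5, with 35 ATF4 targets in orange, 23 p53 targets in blue and the 4 called genes ringed. Points below the dashed line of equal responses responded less in the poly-adenylate line, as SESN2 did (0.50 in the ChFP and -0.38 in the poly-adenylate line).

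ATF4 targets of the integrated stress response include genes of amino acid uptake and synthesis, stress transcription factors and secreted hormones. Of 39 measured, 2 passed, SESN2 and VLDLR, both lower (0.0259% of all genes were), and 37 did not. Their estimates lay below 0 for 33 and above it for 6, with a median of -0.25, against -0.0058 over all genes, of which 51.4% lay below 0. At an unadjusted p under 0.05, 19 were lower and 1 higher, against 5.32% and 5.63% of all genes. In the poly-adenylate line 13 of the 39 fell (0.265% of all genes did) and 0 rose. In the ChFP line 3 rose (1.13% of all genes did) and 1 fell (0.887%). The 3 that rose there were SESN2, the inhibin subunit gene INHBE and the stress hormone gene GDF15. The median response of the 39 in the ChFP line was 0.015, against 0.011 over all genes. Which factor moved these 3 genes was not tested. The list had been described in these libraries before it was used here, so its counts are not independent evidence of a direction.

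Among the transcription factors, ATF4 itself was at 669, 692 and 647 CPM in uninduced and 606, 668 and 685 in induced ChFP libraries. It was at 914, 771 and 797 CPM in uninduced and 693, 695 and 674 in induced poly-adenylate libraries. The uninduced poly-adenylate libraries stood above the other 9, and the remaining groups overlapped. ATF4 fell in the poly-adenylate line by 0.27 ± 0.06 (adjusted p = 0.0309), and its difference was -0.23 ± 0.08 (0.279). CEBPG, a partner of ATF4, fell there too (difference -0.23 ± 0.07, adjusted p = 0.239), as did JDP2, a repressor of AP-1 (-0.84 ± 0.20, 0.177). DDIT3 (CHOP) had a difference of -0.35 ± 0.24 and ATF3 of -0.25 ± 0.30 (adjusted p = 0.631 and 0.827), and the estimate of ATF3 was 0.09 over balanced sets. PPP1R15A, the phosphatase subunit that ends eIF2α phosphorylation, had -0.26 ± 0.13 (0.481).

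Among the metabolic members, CTH, which makes cysteine from cystathionine, was at 12.6, 14.4 and 15 CPM before and 14.1, 15.7 and 16.1 after induction of ChFP. In the poly-adenylate line it was at 21.6, 20.4 and 18.4 CPM before and 16.3, 14.2 and 14.3 after induction. Again the uninduced poly-adenylate libraries were the 3 highest, and the other groups overlapped. CTH fell in the poly-adenylate line by 0.43 ± 0.09 (adjusted p = 0.0238) and its difference was -0.56 ± 0.12 (0.129). SLC6A9, a glycine transporter, was at 28.8, 26.9 and 28.2 CPM in uninduced and 20.3, 19.7 and 18 in induced poly-adenylate libraries, and at 16.8, 15.9 and 19.6 in uninduced and 16.1, 16.2 and 20.3 in induced ChFP libraries. It fell in the poly-adenylate line by 0.53 ± 0.09 (adjusted p = 0.0234), with a difference of -0.55 ± 0.14 (0.178). The cystine transporter SLC7A11 fell by 0.95 ± 0.16 (0.0238), with a difference of -0.66 ± 0.23 (0.3). The glutamine transporter SLC38A2 (difference -0.28 ± 0.08, adjusted p = 0.202), the asparagine synthetase ASNS (-0.32 ± 0.13, 0.341), the folate enzyme MTHFD2 (-0.24 ± 0.08, 0.259) and the serine pathway enzyme PSAT1 (-0.18 ± 0.09, 0.443) fell in the poly-adenylate line as well, and none of these differences passed. ALDH18A1, which opens proline synthesis, had the highest estimate of the list, 0.18 ± 0.06 (0.27).

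CHAC1, a glutathione-degrading enzyme, had the lowest estimate of the list, -2.22 ± 0.58 (adjusted p = 0.223). It was at 4.51, 6.61 and 4.69 CPM in uninduced and 4.98, 7.37 and 11.9 in induced ChFP libraries. Uninduced poly-adenylate libraries had 35.7, 15 and 12.2 CPM and induced ones 8.09, 6.43 and 6.22. Uninduced poly-adenylate replicate 1 was the highest of all, and the ATF4 list as a whole was highest in it. The median member stood 0.44, 0.25 and 0.22 log2 from its uninduced ChFP mean in uninduced and 0.22, 0.09 and 0.03 in induced poly-adenylate libraries, and -0.06, 0.08 and 0.08 from it in induced ChFP libraries. Thus the list was highest in the uninduced poly-adenylate libraries, and the induced groups of the lines overlapped. Between the uninduced lines 12 of the 39 members were higher in the poly-adenylate line and 0 lower, where 15 of all genes were higher (0.0971%) and 1 lower (0.00647%), 0.104% in all. Between the induced lines 2 members were higher (0.609% of all genes were, and 0.939% were called in all) and 0 lower.

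Over balanced sets the median of the ATF4 targets was -0.18, with 30 below 0 and 1 member called (0.0191% of all genes were). With the library set as a covariate the median was -0.24, with 7 called lower (0.311% of all genes were). With a replicate block within line 6 were called lower, and with a block across groups 4. With block within line and library set 18 were, beside 1 higher (580 of all genes were called higher there). Of all 15447 genes 37, 30 and 319 were called lower in these fits. The labels do not say that replicate numbers pair libraries. Of 19 cytosolic aminoacyl-tRNA synthetases that passed the filter, several of which ATF4 also raises, none passed the test (median 0.03). SARS1 fell in the poly-adenylate line (difference -0.18 ± 0.06, adjusted p = 0.27), and FARSA had the lowest adjusted p of the list with 0.26 ± 0.07 (0.202). Among 11 kinases and phosphatase subunits that act on eIF2 none passed. GCN2 (EIF2AK4) had a difference of -0.07 ± 0.07 (0.781) and PERK (EIF2AK3) of 0.06 ± 0.12 (0.911).

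**Figure D3:**
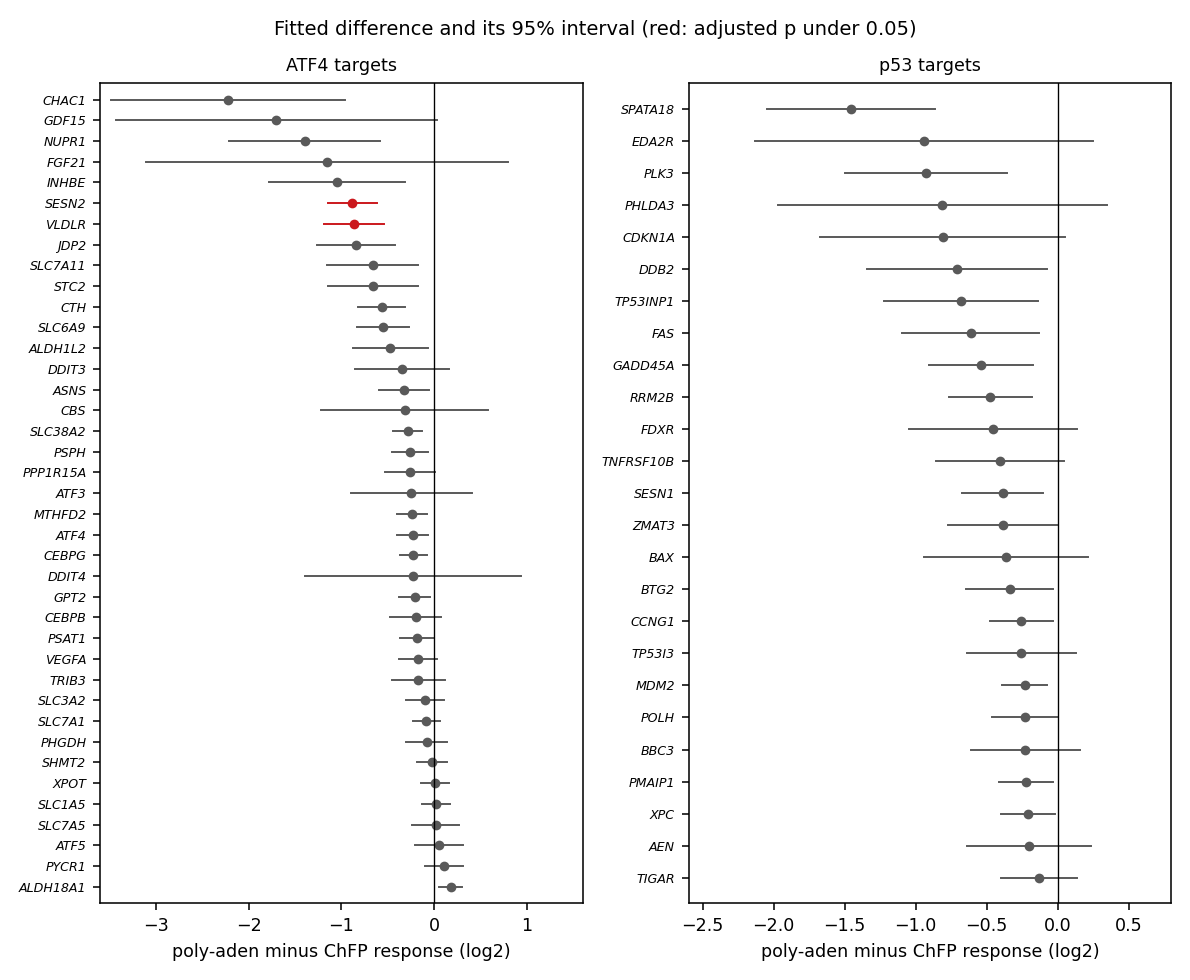
Fitted difference of the responses (log2, points) with its 95% interval (lines) for 39 ATF4 targets and 25 p53 targets, sorted by estimate; red marks an adjusted p under 0.05 and the vertical line is 0. Red are SESN2 and VLDLR, 33 ATF4 targets and all 25 p53 targets have estimates below 0, and the lowest estimate belongs to CHAC1 (-3.48 to -0.96).

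p53 targets serve cell cycle arrest, DNA repair and apoptosis. None of 25 passed the test of the difference, while all 25 estimates were below 0 (51.4% of all genes were), with a median of -0.39. At an unadjusted p under 0.05, 14 were lower and 0 higher, against 5.32% and 5.63% of all genes. In the ChFP line 14 of the 25 rose (1.13% of all genes did) and 0 fell, and in the poly-adenylate line 0 rose and 0 fell. This list too had been described in these libraries before. It does not hold SESN2, which was counted with the ATF4 targets. CDKN1A, the cell cycle inhibitor p21, was at 53.7, 40.6 and 34.5 CPM before and 138, 96 and 81.9 after induction of ChFP. It was at 57.7, 38.3 and 37.7 CPM before and 80.1, 54.2 and 52.2 after induction of poly-adenylate. The ChFP groups did not overlap and those of the poly-adenylate line did. Each induced poly-adenylate library was above the uninduced one of its number, though the labels do not say that numbers pair libraries. CDKN1A rose in the ChFP line by 1.28 ± 0.28 (adjusted p = 0.0414), its estimate in the poly-adenylate line was 0.47 ± 0.28 (0.405), and its difference was -0.81 ± 0.40 (0.486). That difference passed in 3 of 26 alternatives, each with a replicate block.

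SPATA18 was at 4.59, 3.69 and 2.87 CPM before and 13.6, 10.9 and 11.1 after induction of ChFP, against 5.91, 3.82 and 4.15 before and 5.71, 5.87 and 4.42 after induction of poly-adenylate. The induced ChFP libraries stood apart from the other 9. It rose in the ChFP line by 1.64 ± 0.19 (adjusted p = 0.000299). The kinase gene PLK3 (difference -0.93 ± 0.27, adjusted p = 0.226), the ribonucleotide reductase subunit RRM2B (-0.48 ± 0.14, 0.229), the p53 ligase MDM2 (-0.23 ± 0.08, 0.27), GADD45A (-0.54 ± 0.17, 0.27) and SESN1 each rose in the ChFP line and did not pass in the difference. The same held for the death receptor gene FAS (-0.61 ± 0.23, 0.318), BTG2 (-0.34 ± 0.14, 0.397), the damage sensors DDB2 (-0.71 ± 0.29, 0.397) and XPC (-0.21 ± 0.09, 0.409), and ZMAT3 (-0.39 ± 0.18, 0.453).

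By library, the median p53 target stood 0.83, 0.56 and 0.45 log2 from its uninduced ChFP mean in induced ChFP libraries and 0.11, -0.02 and -0.12 in uninduced ones. It stood 0.35, -0.08 and -0.08 from it in uninduced and 0.37, 0.15 and 0.10 in induced poly-adenylate libraries. Replicate 1 was the highest of its group in all 4 groups. The induced ChFP libraries were the 3 highest of all, while both poly-adenylate groups overlapped. Between the induced lines 6 members were lower in the poly-adenylate line (0.33% of all genes were) and 0 higher, and between the uninduced lines none was called. Over balanced sets the median difference was -0.37 with 25 below 0 and 0 called. In the fit that has the library set as a covariate the median was -0.39 and 1 member was called lower (0.311% of all genes were). With a replicate block within line 9 members were called lower, with a block across groups 7, and with block within line and library set 20. Of all 15447 genes 37, 30 and 319 were called lower in these fits.

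**Figure D4:**
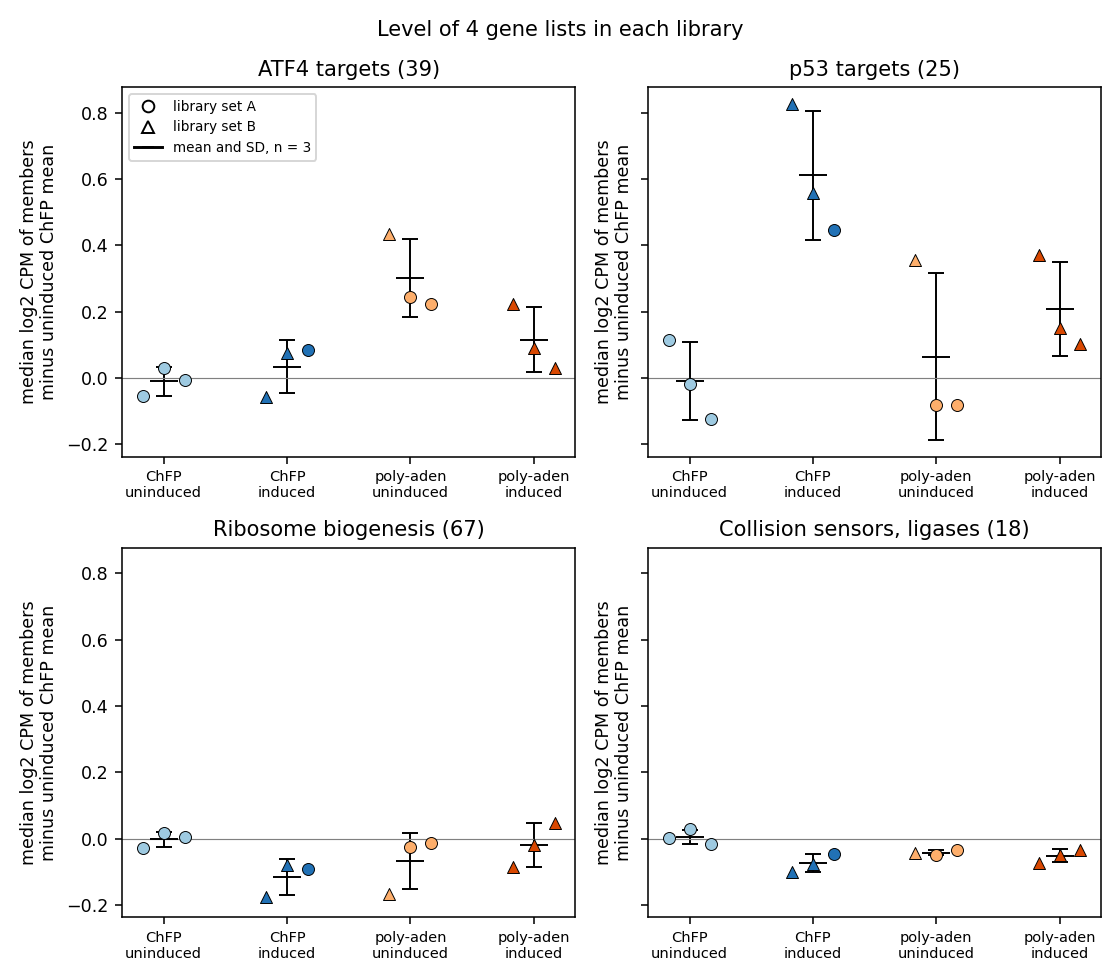
Median over list members of log2 CPM minus the member's mean in uninduced ChFP libraries, for each of the 12 libraries, with the mean and SD of 3 libraries per group; circles and triangles are the first (A) and second (B) library set. ATF4 targets were highest in uninduced poly-adenylate libraries (0.22 to 0.44) and p53 targets in induced ChFP libraries (0.45 to 0.83), while collision sensors lay between -0.10 and 0.03.

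Among factors that act on stalled ribosomes none passed. Only the level of their RNA was measured, and their action on ribosomes was not. Of 18 sensors and ligases of collided ribosomes, 14 estimates were above and 4 below 0, with a median of 0.06 and extremes of -0.05 and 0.20. The members' 95% intervals reached at most from -0.26 to 0.46, so a difference of 1 log2 lies outside all of them. ZNF598 was at 159, 166 and 170.2 CPM before and 149.5, 162 and 163 after induction of ChFP. It was at 151, 155 and 171 CPM before and 166, 185 and 176 after induction of poly-adenylate. Its groups overlapped in both lines, and its difference of 0.20 ± 0.07 (95% interval 0.05 to 0.36) had the smallest adjusted p of the list (0.294). RNF25 (0.19 ± 0.09, 0.427) and RNF10 (0.12 ± 0.06, 0.456), ligases that modify ribosomal proteins, did not pass. Neither did EDF1, which binds collided ribosomes (0.07 ± 0.07, 0.779), GCN1 (0.04 ± 0.06, 0.882), the translational repressor GIGYF2 (0.03 ± 0.07, 0.922) and the ribotoxic stress kinase MAP3K20 (-0.04 ± 0.08, 0.9).

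Of 23 genes of ribosome splitting, rescue and clearance of nascent chains, 22 passed the filter, 14 of them had estimates above 0, the median was 0.04 and the smallest adjusted p was 0.281. That was GTPBP2, a GTPase linked to stalled ribosomes, at 54.3, 60.1 and 60.1 CPM before and 69.9, 65.5 and 66.1 after induction of ChFP. In the poly-adenylate line it was at 68.7, 64.7 and 63.6 CPM before and 67.1, 63.3 and 65.8 after induction. It rose in the ChFP line by 0.21 ± 0.05 (adjusted p = 0.0423), where the groups did not overlap, and its difference was -0.22 ± 0.07. ASCC3, the helicase that splits collided ribosomes, had -0.19 ± 0.09 (0.451). The rescue factors PELO (0.13 ± 0.08, 0.604), HBS1L (-0.02 ± 0.07, 0.958) and the splitting factor ABCE1 (0.10 ± 0.08, 0.715) did not pass. Neither did NEMF, which adds C-terminal tails to stalled chains (-0.08 ± 0.09, 0.821), and LTN1, the ligase that marks those chains (-0.01 ± 0.07).

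Of 30 genes of poly(A) binding and deadenylation, 17 estimates were above and 13 below 0, and the median was 0.02. PAN2, the catalytic subunit of a deadenylase, had the smallest adjusted p (-0.28 ± 0.10, 0.287). TOB2, which recruits the CCR4-NOT deadenylase, fell in the ChFP line and had a difference of 0.21 ± 0.07 (0.294). The poly(A)-binding proteins PABPC1 (-0.05 ± 0.10, 0.904), PABPC4 (0.15 ± 0.07, 0.434) and PABPC1L (-0.28 ± 0.13, 0.427) did not pass. Neither did the CCR4-NOT scaffold CNOT1 (-0.00088 ± 0.13) and the deadenylase CNOT7 (0.07 ± 0.06, 0.707). The deadenylase gene PARN had few counts and an estimate of 3.49 ± 4.26, too wide to be read.

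**Figure D5:**
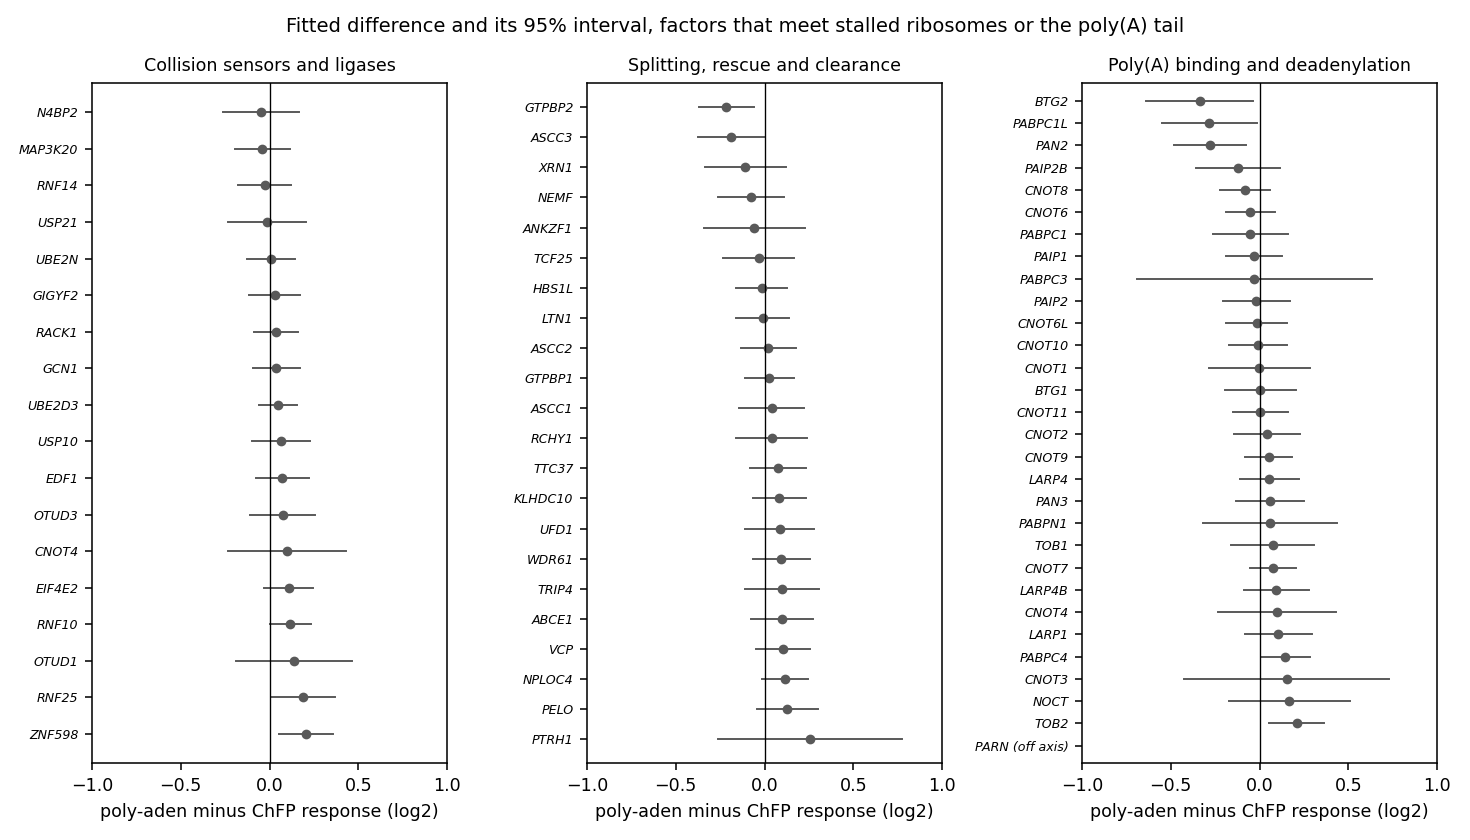
Fitted difference of the responses (log2, points) with its 95% interval (lines) for the 18 collision sensors and ligases, 22 rescue and clearance genes and 30 genes of poly(A) binding and deadenylation; the axis runs from -1 to 1 and PARN (3.49) lies off it. No member passed, and the list medians were 0.06, 0.04 and 0.02.

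Of 67 ribosome biogenesis factors 65 estimates were above 0 (median 0.16), against 7513 of all 15447 genes. At an unadjusted p under 0.05, 24 were higher and 1 lower, against 5.63% and 5.32% of all genes, and no member passed the test. In the ChFP line 3 of these factors fell (0.887% of all genes did) and none rose: HEATR1 (-0.24 ± 0.05, adjusted p = 0.019), UTP14A (-0.32 ± 0.08, 0.0404) and UTP6 (-0.22 ± 0.05, 0.0239). Their differences were 0.25 ± 0.07, 0.35 ± 0.11 and 0.24 ± 0.07, with adjusted p of 0.202, 0.251 and 0.202. RRS1 (0.30 ± 0.08, 0.185) had the lowest adjusted p of the list. With the library set as a covariate 6 members were called higher and 0 lower (1.07% of all genes were called higher), and over balanced sets none was. With a replicate block within line or across groups 0 were called. DESeq2's Wald test called 4 members higher, where it called 107 of 4935 genes higher, and 0 without its independent filter. With the block within line and the library set 26 were called higher, where 580 of all 15447 genes were.

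Of 47 G2/M and mitosis genes 41 estimates were above 0 (median 0.10), and none passed. Of these genes 10 fell in the ChFP line (0.887% of all genes did) and 0 in the poly-adenylate line (0.265%). CCNB1, the mitotic cyclin B1, was at 257, 253 and 254 CPM before and 214, 214 and 217 after induction of ChFP. It was at 241, 241 and 240.2 CPM before and 237, 238 and 243 after induction of poly-adenylate. The ChFP groups did not overlap and the poly-adenylate groups did. Its difference was 0.24 ± 0.06 (adjusted p = 0.161), beside those of the mitotic kinase AURKA (0.26 ± 0.06, 0.178), UBE2C (0.22 ± 0.06, 0.185) and CDC20 (0.21 ± 0.06, 0.223), both of the anaphase-promoting machinery. With the library set as a covariate 5 members were called higher (1.07% of all genes were), and over balanced sets 0. With a replicate block within line 0 were called. With a block across groups 1 was called higher, where 17 of all 15447 genes were. DESeq2's Wald test called 5 members higher, where it called 107 of 4935 genes higher. Without its independent filter it called 2, where it called 21 of 22936. With the block within line and the library set 12 were called higher, where 580 of all 15447 genes were.

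Of 24 cholesterol biosynthesis genes 20 estimates were above 0 (median 0.15), and 6 fell in the ChFP line (0.887% of all genes did) against 0 in the poly-adenylate line (0.265%). SQLE, an oxygenase of sterol synthesis, was at 352, 349 and 352 CPM before and 255, 266 and 293 after induction of ChFP. It was at 315, 323 and 334 CPM before and 298, 292 and 299 after induction of poly-adenylate. Induced libraries lay below uninduced ones in both lines. SQLE fell by 0.37 ± 0.05 in the ChFP line (adjusted p = 0.000357), its estimate in the poly-adenylate line was -0.13 ± 0.05 (0.181) and its difference 0.24 ± 0.07 (0.209). The sterol enzyme gene NSDHL had the lowest adjusted p of the list (0.31 ± 0.07, 0.129). Of 21 cytosolic heat shock genes 18 estimates were above 0 (median 0.15), with the cochaperones FKBP4 (0.23 ± 0.06, 0.178), DNAJB1 (0.32 ± 0.09, 0.218), BAG3 (0.33 ± 0.10, 0.226) and CHORDC1 (0.24 ± 0.07, 0.223). No member of either list passed. With the library set as a covariate each of these lists had 4 members called higher (1.07% of all genes were), and over balanced sets 0. With a replicate block within line each had 0. With that block and the library set each had 10 called higher, where 580 of all 15447 genes were. DESeq2's Wald test called 4 cholesterol and 2 heat shock genes higher, where it called 107 of 4935 genes higher. Without its independent filter it called 2 and 1, where it called 21 of 22936.

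Of 30 replication-dependent and linker histone genes that passed the filter, 27 had estimates below 0 (median -0.23), and none passed the test. Most replication-dependent histone messages lack the poly(A) tail by which these libraries were selected. In the ChFP line 3 members rose (1.13% of all genes did) and 0 fell. In the poly-adenylate line 1 fell (0.265% of all genes did) and 0 rose. The 3 that rose were H1-2 (0.61 ± 0.10, adjusted p = 0.00286), H2BC17 (1.14 ± 0.28, 0.0341) and H2AC6 (0.87 ± 0.21, 0.0326). Their differences were -0.36 ± 0.14, -1.51 ± 0.39 and -0.86 ± 0.29. No member was called in 78 cytosolic ribosomal proteins (median -0.02), 77 mitochondrial ribosomal proteins (0.09), 45 proteasome subunits (0.09), 25 genes of the unfolded protein response (0.08) or 18 factors of nonsense-mediated decay (0.09). None was called either in 42 autophagy and lysosome genes (-0.01), 25 NRF2 targets (0.05), 27 immediate early genes (0.12) or 23 interferon and NF-kB genes (-0.0037).

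The 102xPR line gives a further response minus the same ChFP response. It shares the ChFP libraries with the difference described here, so only the values are set side by side, and 58.3% of genes were called in it. SESN2 had 1.05 in that comparison against -0.88 here, VLDLR -0.85 against -0.86, NEAT1 -0.26 against -0.59 and DDR2 0.02 against -0.60. ATF4 had 0.77 against -0.23, CTH 1.87 against -0.56, ATF3 3.13 against -0.25 and CHAC1 1.55 against -2.22.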

How the data were processed

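Reads are 100 bp single reads from a NovaSeq, and poly(A)-selected RNA came from a cycloheximide lysate cleared of debris in a centrifuge, per the labels' protocols. The authors deposited whole-number read counts per gene that were not normalized. Tools named in the submitters' processing notes are HISAT2 2.1.0, featureCounts, cutadapt 3.4, bcl2fastq 2.20.0.422 and DESeq2 1.30.1, and the build is hg38. The labels state neither annotation nor strand setting, so overlapping, antisense and multi-copy genes are uncertain. Deposited tables of comparisons were not used.

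Everything else was computed here. Of 28394 genes, 550 had no symbol (0.0410% of counts) and were kept under their identifier. Genes passed edgeR's filterByExpr (minimum count 10), leaving 15447, and were scaled by TMM. edgeR 4.0.16 (R 4.3.3) fitted a robust quasi-likelihood model with 1 term per group over all 18 libraries, which share 1 estimate of the spread. The contrast was (induced minus uninduced poly-adenylate) minus (induced minus uninduced ChFP), adjusted by Benjamini-Hochberg over all genes with a threshold of 0.05. CPM were scaled by the TMM factors, and log2 CPM used a prior count of 2. The steps were also run on simulated counts with known changes. Those counts had no library sets and no shifts shared by replicate number, so that run does not bear on the calls reported here.

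The rule for named genes took the 12 largest called differences each way (mean log2 CPM of at least 1, responses not overlapping between lines), up to 3 called members of each list, called members of the stalling and poly(A) lists and the 5 most abundant calls each way. With 4 calls it gave 4 genes, and all others, those near the threshold included, were chosen after their values were seen. Members and gene lists were chosen with earlier results of these data known, and lists are described by counts and medians with no set test. Same-numbered replicates had correlations of 0.00645 to 0.166 in their deviations over all genes tested. These deviations also hold the library set, so the correlations cannot decide whether the numbers are pairs. The labels do not say so, and the main fit has no replicate block, which is given as an alternative. No 2 libraries of a group agreed within counting noise. Alternatives were other normalizations, filters, samples and tests (DESeq2 1.42.0), a replicate block, the library set or the mitochondrial share as a covariate, and each library left out. Gene positions and start-site windows are RefSeq's (GRCh38.p14), matched by Entrez identifier and symbol. Some genes are not reported here.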

Additional observations from a re-analysis of the deposited data

Results flagged for a closer look

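By the test of the difference itself (edgeR's quasi-likelihood test, adjusted p under 0.05), the response to induction differed between the poly-adenylate and ChFP lines for 4 genes. The differences were -0.88 log2 for SESN2, -0.86 for VLDLR, -0.60 for DDR2 and -0.59 for NEAT1. For each of them all 3 induced poly-adenylate libraries were below all 3 uninduced ones. SESN2 and NEAT1 were called in both lines, upward in the ChFP and downward in the poly-adenylate line. Groups of 3 libraries are too small for a test of single outlying libraries, and none was made.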

How the results depend on the processing

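The 4 genes called had the same direction in every alternative run. With 4 genes called in all, 0 higher and 4 lower, the count moved most with the test and the covariates. It was 114 (107 higher, 7 lower) with DESeq2's Wald test, 31 (21 higher, 10 lower) with DESeq2 without independent filtering, 11 (5 higher) with no filter on low counts, 214 (166 higher, 48 lower) with the library set as a covariate and 235 (166 higher, 69 lower) with the mitochondrial share as a covariate. With a replicate block within line it was 52 (15 higher, 37 lower), with a replicate block across groups 47 (17 higher, 30 lower), and with the library set and a replicate block together 899 (580 higher, 319 lower). In either direction the block within line called 0.337% of genes, the block across groups 0.304% and the block with the library set 5.82%. Called lower in these fits were 37, 30 and 319 of all 15447 genes. Among them were 9, 7 and 20 of 25 p53 targets and 6, 4 and 18 of 39 ATF4 targets. Of 67 ribosome biogenesis factors 0, 0 and 26 were called higher in these fits, where 15, 17 and 580 of all genes were. The medians of these lists were -0.39, -0.39 and -0.40 for p53 targets, -0.24, -0.25 and -0.24 for ATF4 targets and 0.16 in each for ribosome biogenesis factors. The replicate numbers were not taken as pairs: all 3 uninduced poly-adenylate libraries correlated best with the induced one of their own number, and of the ChFP libraries only replicate 1 did, which is a hint from the data and not the design. The causes of these shifts were not tested. Leaving out 1 library gave 1 to 8 genes (0 to 2 higher, 1 to 6 lower), with 1 gene, DDR2, without induced ChFP replicate 3, 2 without uninduced ChFP replicate 1, 8 without uninduced poly-adenylate replicate 3 and 7 without induced poly-adenylate replicate 1. The remaining settings, namely only the 12 libraries, other size factors, library totals, a stricter filter, and, chosen after seeing the data, balanced sets and only genes with a symbol, gave 3 or 4. DESeq2 without independent filtering was also chosen after seeing the data. VLDLR lost its call in 13 alternatives, NEAT1 in 2 and SESN2 in 1. The median 95% half-width of a difference was 0.249 log2, and the part of depth in it was not tested.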
